A study of Mus musculus with 8 samples.

Results

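The DNA damage response and repair genes described here were 31 genes picked by symbol from the 24902 symbols of a bulk RNA-seq count matrix. All 31 were in the matrix, and 30 had a value in every library and were tested among 13173 genes. The libraries were made from splenic B cells of transgenic mice, labelled C57BL/6N, that had reached early removal criteria (ERC); the study's methods name C57BL/6J as the background of the Eµ-TCL1 parents. There were 4 Eµ-PRMT5 mice, carrying human PRMT5, 3 Eµ-PRMT5/TCL1 mice, carrying human PRMT5 and human TCL1, and 1 Eµ-TCL1 mouse, carrying human TCL1. Each transgene is driven by a VH promoter and the IgH-Eµ enhancer, so that it is expressed in immature and mature B cells, and the combined genotype came from crossing the single transgenic lines. The ages of the mice are not given in the sources used here, no mouse without a transgene was in this matrix, and B cells had been enriched with a pan-B isolation kit. In the study, median survival was longest with Eµ-PRMT5, shorter with Eµ-TCL1 and shortest with Eµ-PRMT5/TCL1. Age at ERC may thus have differed between the genotypes, and its part was not separated from that of genotype. Gene counts summed to 5484833, 6471716, 3987989 and 10252426 with Eµ-PRMT5 (mice 1 to 4), 6232700, 7290268 and 6686631 with Eµ-PRMT5/TCL1 (mice 1 to 3) and 3356297 with Eµ-TCL1. Levels are given as CPM, counts scaled to a common library size after TMM normalization, and values of a genotype follow the order of its mouse numbers. The matrix cannot check the transgenes, which are human cDNAs: the mouse Prmt5 symbol was at 128, 171, 62.7 and 235 CPM with Eµ-PRMT5, 110.0, 115 and 126 CPM with Eµ-PRMT5/TCL1 and 79.5 CPM with Eµ-TCL1, and Tcl1 had a value in only 3 libraries.

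The DNA damage response begins with sensors that bind a break or stalled replication fork and with the kinases ATM and ATR, which pass the signal to the checkpoint kinases and slow the cell cycle. Breaks are then mended by homologous recombination, which copies the sister chromatid after replication, or by end joining, which ligates the ends in any phase of the cycle, while altered bases, mispairs and crosslinks are handled by base excision, mismatch and Fanconi repair. B cells depend on these enzymes more than most cells, because joining of immunoglobulin gene segments, class switching and somatic hypermutation all pass through deliberate breaks or altered bases, and loss of ATM marks a group of chronic lymphocytic leukemias.

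The libraries differed in the levels of cell type markers. The 8 B cell markers, all with a value in every mouse, summed to 5988, 4201, 7079 and 2099 CPM with Eµ-PRMT5, 3716, 5433 and 8964 CPM with Eµ-PRMT5/TCL1 and 4981 CPM with Eµ-TCL1. Cd79a, a chain of the B cell receptor and the most abundant of them, had its lowest level, 411 CPM, in Eµ-PRMT5 mouse 4, and the other 7 libraries had 924 to 2115 CPM. The same mouse stood apart in cell cycle genes: each of the 17 mitosis genes and each of the 16 S phase genes tested was highest there. Mki67, a marker of cycling cells, was at 74.3, 27.9, 98.3 and 806 CPM with Eµ-PRMT5, 206, 124 and 404 CPM with Eµ-PRMT5/TCL1 and 129.5 CPM with Eµ-TCL1. The sample titles of Eµ-PRMT5 mice 3 and 4 carry animal labels that also appear in the study's histology. There the label of mouse 3 had large anaplastic lymphocytes with histiocytes, and that of mouse 4 small lymphocytes. The title of mouse 2 carries the name of a founder. Whether the labels mean the same animals is not stated, and the part of pathology in these levels was not tested.

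Markers of other cell types also varied from mouse to mouse. The 11 neutrophil genes summed to 2717, 2198, 502 and 5438 CPM with Eµ-PRMT5, 9330.5, 5235 and 680.0 CPM with Eµ-PRMT5/TCL1 and 677 CPM with Eµ-TCL1, with Ngp, a granule protein, the most abundant and Ly6g at 0 or without a value in at least 1 mouse. The 8 erythroid genes, 6 of them tested, summed to 129.7, 148, 85.7 and 613 CPM, then 361, 133 and 124 CPM, then 71.9 CPM, with Tfrc the most abundant and Alas2 and Klf1 at 0 or without a value in at least 1 mouse. T cell genes (7 of 8 in the matrix, led by Lck) summed to 272, 264, 745 and 328 CPM with Eµ-PRMT5, 256, 717 and 292 CPM with Eµ-PRMT5/TCL1 and 213 CPM with Eµ-TCL1, and Cd4 and Cd8a were at 0 or without a value in 1 mouse each. Lck alone gave 667 CPM of the sum in Eµ-PRMT5/TCL1 mouse 2, where Cd3d was at 2.43 CPM and Cd3e at 6.43 CPM, against 44.7 and 55.2 CPM in Eµ-PRMT5 mouse 3. NK cell genes (6, led by Nkg7) summed to 60.9, 51.5, 389 and 48.5 CPM, then 70.5, 57 and 25.2 CPM, then 31.4 CPM, with Klrb1c, Gzma and Gzmb at 0 or without a value in at least 1 mouse. Macrophage genes (8, led by Cd68, with C1qa, C1qb, C1qc and Marco at 0 or without a value in at least 1 mouse) summed to 143, 199, 374 and 908 CPM, then 789, 538 and 302 CPM, then 163 CPM, and plasma cell genes (6, led by Jchain) to 6033, 2668, 2079 and 1232 CPM, then 867, 771 and 3475 CPM, then 2478 CPM. In bulk RNA, fewer cells of a type and less RNA per cell cannot be told apart, and the part of cell content or cycling in the values below was not tested.

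No member passed the test of Eµ-PRMT5/TCL1 against Eµ-PRMT5, the comparison with replicates on either side. The mean log2 CPM of the 30 members was 4.81, 5.05, 5.32 and 5.71 in the Eµ-PRMT5 mice, 5.29, 5.03 and 5.53 in the Eµ-PRMT5/TCL1 mice and 5.60 in the Eµ-TCL1 mouse. The groups overlapped, at 5.23 ± 0.39 (SD, n = 4) and 5.29 ± 0.25 (SD, n = 3), a difference of 0.06 that was smaller than the spread within either group. It was 0.223 without Eµ-PRMT5 mouse 4, and it turned to -0.0614 without Eµ-PRMT5 mouse 1 and -0.0621 without Eµ-PRMT5/TCL1 mouse 3. With edgeR's quasi-likelihood test and Benjamini-Hochberg adjustment, 0 of 30 members and 0 of 13173 genes (0%) had an adjusted p under 0.05. At an unadjusted p under 0.05 the counts were 0 of 30 members and 286 genes, which is 2.17% of those tested, and DESeq2 called 4 genes, none a member. The smallest unadjusted p of a member was 0.192, for Xrcc4. The median log2 fold change of the members was -0.02 (0.05 with upper-quartile factors and 0.02 with library size alone), beside -0.09 over all genes tested, with 13 members above and 17 below 0. In none of the 30 members were the values of the 4 and the 3 mice fully separated, against 2.95% of all genes.

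**Figure D1:**
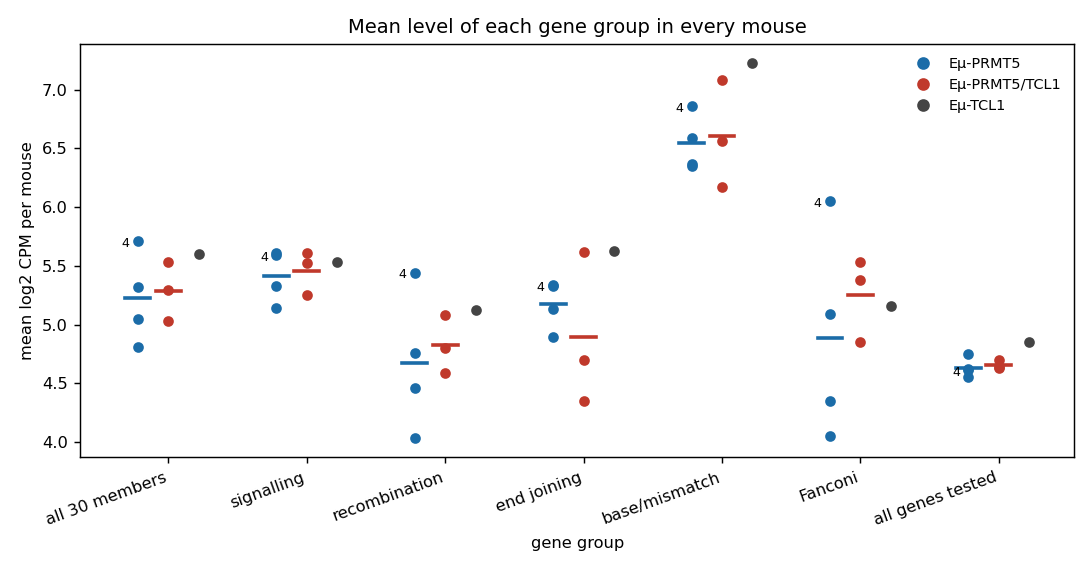
Mean log2 CPM (vertical axis) of all 30 members, of each role group and of all genes tested (horizontal axis), 1 point per mouse, with a bar at the mean of the 4 Eµ-PRMT5 (blue) and 3 Eµ-PRMT5/TCL1 (red) mice; grey is the Eµ-TCL1 mouse and "4" marks Eµ-PRMT5 mouse 4. The Eµ-PRMT5 and Eµ-PRMT5/TCL1 mice overlap in every role group, and the widest spread is among the Eµ-PRMT5 mice in Fanconi genes, from 4.05 to 6.05.

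Mice of one genotype differed more than the genotypes did. Of the 30 members, 12 were highest in Eµ-PRMT5 mouse 4, where 20.1% of all genes tested had their highest value, and 9 were lowest in Eµ-PRMT5 mouse 1, against 20.4% of all genes. A further 8 were lowest in Eµ-PRMT5 mouse 2, against 9.23% of all genes. The highest mouse exceeded the lowest more than 4-fold in 9 members, while 4 members, Atm, Atr, Mre11a and Rad52, stayed within 2-fold, shares that were 46.1% and 11.2% over all genes. By role, the mean of the signalling genes ranged from 5.14 to 5.61 log2 CPM over the 8 mice, and that of the recombination genes from 4.03 to 5.44.

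**Figure D2:**
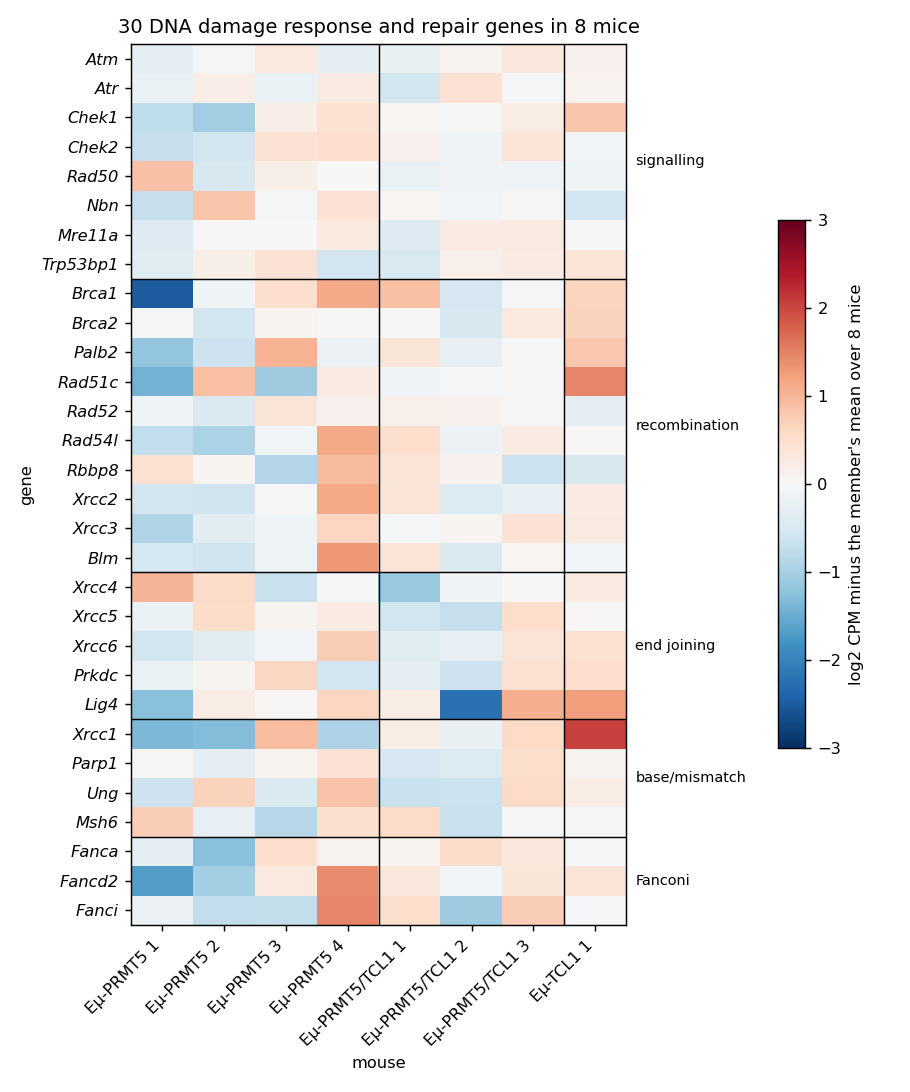
Each cell is the log2 CPM of a member (rows, by role) in a mouse (columns, by genotype) minus that member's mean over the 8 mice, red above and blue below it. Eµ-PRMT5 mouse 4 is above the mean for most recombination and Fanconi genes, Xrcc1 is highest in the Eµ-TCL1 mouse, and rows such as Atm and Mre11a are nearly flat.

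Because the levels of several members ran alongside those of cell cycle genes, although none passed after adjustment, the members' promoters were searched for the E2F-type words TTTCCCGC, TTTCGCGC, TTTGCCGC and TTTGGCGC on either strand, in the 250 bases before the RefSeq start (GRCm38.p6). E2F factors drive genes of S phase, and these words are forms of their binding motif. RefSeq windows were matched for 25 members, leaving out Prkdc, Xrcc2, Fancd2, Rbbp8, Nbn and Rad50. A word was present in 4 of the 25 (16%), Bard1, Brca2, Chek2 and Xrcc6, against 2.16% of 27025 genes with a window. That background includes genes that were not among the 13173 tested, and no share over tested genes was taken. The shares therefore do not compare the members with genes of like expression. Among the 6 matched members with a positive relation to the mitosis genes at an unadjusted p under 0.05, described further on, only Chek2 held one (16.7%), and 2 of the other 18 tested members did (11.1%). A match is a description of letters in a window, and binding was not measured. Shown are Chek2 at chr5:110839778-110839978 and Brca2 at chr5:150522371-150522620, with the word in capitals as the reverse complement GCGGGAAA, and for contrast Parp1 at chr1:180568641-180568890 and Xrcc1 at chr7:24546449-24546698, the abundant members without one; all are on the plus strand. In GENCODE the windows of Chek2, Brca2 and Parp1 lie upstream of the gene and over no exon, while the Xrcc1 window lies inside the gene but over no exon, because its RefSeq start is downstream of the GENCODE start. By the GENCODE start the Xrcc1 window is thus intronic. Its lack of a word says nothing of the sequence before that start. The Chek2 window was shortened to 201 bases to leave out 49 bases of annotated exon, and the Xrcc6 window is not shown since all of it overlaps exons.
Chek2: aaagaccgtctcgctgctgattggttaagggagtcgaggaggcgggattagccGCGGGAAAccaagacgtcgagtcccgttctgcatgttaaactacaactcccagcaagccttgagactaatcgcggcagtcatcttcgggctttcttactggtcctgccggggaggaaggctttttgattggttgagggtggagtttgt
Brca2: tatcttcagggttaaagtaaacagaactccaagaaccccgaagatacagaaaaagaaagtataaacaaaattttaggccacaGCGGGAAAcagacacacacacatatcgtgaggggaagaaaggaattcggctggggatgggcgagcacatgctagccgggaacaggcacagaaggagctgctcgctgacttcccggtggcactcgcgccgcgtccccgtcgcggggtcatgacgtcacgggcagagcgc
Parp1: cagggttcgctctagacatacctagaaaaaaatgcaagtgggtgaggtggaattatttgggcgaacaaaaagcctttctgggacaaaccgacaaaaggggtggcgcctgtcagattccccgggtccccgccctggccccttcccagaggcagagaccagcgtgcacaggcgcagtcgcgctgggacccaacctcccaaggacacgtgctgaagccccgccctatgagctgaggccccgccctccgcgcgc
Xrcc1: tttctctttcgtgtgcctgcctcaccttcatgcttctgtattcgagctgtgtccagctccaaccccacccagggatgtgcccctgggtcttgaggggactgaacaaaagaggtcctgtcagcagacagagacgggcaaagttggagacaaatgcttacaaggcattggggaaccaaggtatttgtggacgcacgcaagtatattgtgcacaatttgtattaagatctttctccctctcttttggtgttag

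Among the sensors and signalling kinases, the large kinases were among the steadiest members. Atm, which responds to double-strand breaks, was at 35.1, 40.7, 51.5 and 34.9 CPM with Eµ-PRMT5, 36.1, 45.6 and 52.6 CPM with Eµ-PRMT5/TCL1 and 46 CPM with Eµ-TCL1. Its group means were 40.6 ± 7.78 (SD, n = 4) and 44.7 ± 8.28 CPM (SD, n = 3), a log2 fold change of 0.14 ± 0.34 (SE) for Eµ-PRMT5/TCL1 over Eµ-PRMT5. This value was 0.28 without Eµ-PRMT5/TCL1 mouse 1 and 0.01 without mouse 3. Atr, the kinase of stalled forks, lay between 24.8 and 48.8 CPM, with a log2 fold change of -0.04 ± 0.37 (0.03 with upper-quartile factors). For Atr it was 0.17 without Eµ-PRMT5/TCL1 mouse 1 and -0.32 without mouse 2. Mre11a, the nuclease of the break-sensing MRN complex, was between 49.5 and 80 CPM, and Trp53bp1, which shields ends from resection, between 52.7 and 107 CPM. In Eµ-PRMT5 mouse 4, Atm and Trp53bp1 had their lowest values and Mre11a its highest, at 80 CPM, while Atr was at 43.6 CPM.

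The checkpoint kinases below ATM and ATR varied more. Chek1, the effector of ATR, was at 14.8, 12.2, 29.2 and 34.9 CPM with Eµ-PRMT5, 26.6, 25.5 and 29.8 CPM with Eµ-PRMT5/TCL1 and 45.7 CPM with Eµ-TCL1. Eµ-PRMT5 mice 1 and 2 were thus below all others, and mice 3 and 4 lay within or above the range of the combined genotype. Chek2, the effector of ATM, also differed within the Eµ-PRMT5 group, with 9.74 and 10.8 CPM in mice 1 and 2 and 21.7 and 22.5 CPM in mice 3 and 4, around the 14.4 to 20.7 CPM of the Eµ-PRMT5/TCL1 mice. The other MRN subunits went separate ways in Eµ-PRMT5 mice 1 and 2. Rad50, the hinge of the complex, stood at 193 CPM in mouse 1 and at 75.8 to 120.1 CPM elsewhere, whereas Nbn, its link to ATM, was lowest in mouse 1 at 22.7 CPM and highest in mouse 2 at 65.7 CPM. The 8 log2 fold changes in this group ran from -0.39 ± 0.36 (SE) for Rad50 to 0.26 ± 0.44 for Chek1, with a median of 0.06. Single libraries moved these ends, Rad50 to -0.07 without Eµ-PRMT5 mouse 1, and Chek1 to 0.05 without mouse 2 and 0.55 without mouse 4.

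Several recombination genes ranged widely between mice. Brca1, which promotes end resection, was at 5.89, 32.1, 49.7 and 77.6 CPM with Eµ-PRMT5, 64.6, 24.4 and 34 CPM with Eµ-PRMT5/TCL1 and 55.7 CPM with Eµ-TCL1. The Eµ-PRMT5 mice spanned all the others, and the value of mouse 1 rested on 29 counts. Group means were 41.3 ± 30.1 (SD, n = 4) and 41 ± 21 CPM (SD, n = 3), with a log2 fold change of -0.01 ± 0.64 (0.04 with upper-quartile factors and 0.02 with library size alone). Single libraries moved it further, to -0.50 without Eµ-PRMT5/TCL1 mouse 1, -0.37 without Eµ-PRMT5 mouse 1 and 0.49 without Eµ-PRMT5 mouse 4. Bard1, the partner of BRCA1, had no value in the same Eµ-PRMT5 mouse 1, where Brca1 was lowest, and was at 4.91, 9.35 and 20.4 CPM in Eµ-PRMT5 mice 2 to 4; it was not tested. Brca2, the gene of a large mediator of strand exchange, varied less, from 35 to 63.8 CPM in the 7 mice with a PRMT5 transgene and 84.4 CPM in the Eµ-TCL1 mouse. Palb2, which bridges BRCA1 and BRCA2, was highest in Eµ-PRMT5 mouse 3 at 63.1 CPM and lowest in mouse 1 at 13.2 CPM.

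The helicases and translocases of recombination were highest in Eµ-PRMT5 mouse 4. Rad54l, a motor that moves along DNA during strand exchange, was at 30, 25.8, 47.9 and 112 CPM with Eµ-PRMT5, 73.3, 44.6 and 60.2 CPM with Eµ-PRMT5/TCL1 and 51.6 CPM with Eµ-TCL1. Blm, the helicase mutated in Bloom syndrome, was at 17.5, 16.5, 22.8 and 62.7 CPM, then 33.6, 18.7 and 26.4 CPM, then 23.8 CPM. In each of these genes, Eµ-PRMT5 mice 1 and 2 held the lowest values of the 8 mice. Their log2 fold changes between the genotypes were 0.14 ± 0.49 (SE) for Rad54l and -0.19 ± 0.52 for Blm. Without Eµ-PRMT5 mouse 4 they were 0.78 and 0.47, and that of Rad54l was -0.06 without mouse 1 and -0.09 without mouse 2 of Eµ-PRMT5, and -0.04 without mouse 1 of Eµ-PRMT5/TCL1, so single libraries set these values.

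Genes of strand exchange and end processing completed this group. Xrcc2 and Xrcc3, accessory factors of recombination, were also highest in Eµ-PRMT5 mouse 4, at 26.8 CPM against 7.6 to 15.7 CPM, and at 57 CPM against 19.3 to 48.7 CPM. Rad51c, which acts in complexes with their products, did not share that order: it was at 2.44, 13.5, 3.19 and 8.53 CPM with Eµ-PRMT5, 6.56, 6.72 and 7.22 CPM with Eµ-PRMT5/TCL1 and 20 CPM with Eµ-TCL1. Its lowest values rested on 12 and 14 counts in Eµ-PRMT5 mice 1 and 3. Rbbp8, which encodes the resection factor CtIP, ranged from 29.4 to 104 CPM within the Eµ-PRMT5 mice alone, and Rad52, an annealing protein, only from 14.1 to 25.1 CPM over all 8 mice. The log2 fold changes of the 10 genes tested ran from -0.28 for Rbbp8 to 0.23 for Xrcc3, with a median of 0.02. Single libraries moved these ends as well. Rbbp8 was at 0.03 without Eµ-PRMT5 mouse 4 and -0.52 without mouse 3. Xrcc3 was at 0.05 without Eµ-PRMT5 mouse 1 and 0.59 without mouse 4.

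End joining genes included the member with the largest log2 fold change between the genotypes, Xrcc4, which did not pass the test. Xrcc4, the scaffold of the ligase, was at 38.2, 27.7, 11.6 and 18.6 CPM with Eµ-PRMT5, 8.36, 17.3 and 18.6 CPM with Eµ-PRMT5/TCL1 and 22.4 CPM with Eµ-TCL1. Mice 1 and 2 of Eµ-PRMT5 were above all others, mice 3 and 4 lay among the combined genotype, and the log2 fold change was -0.70 ± 0.51 (SE; edgeR unadjusted p = 0.192, adjusted p = 1). It was -0.37 without Eµ-PRMT5 mouse 1 and -0.42 without Eµ-PRMT5/TCL1 mouse 1, and with these or some other mice left out another member had the larger value. Lig4, the ligase it holds, was at 3.45, 10.1, 8.89 and 13.7 CPM, then 10.2, 1.57 and 18.9 CPM, then 21.1 CPM. That 13.4-fold range rested on few reads, with 11 counts in Eµ-PRMT5/TCL1 mouse 2 and 17 in Eµ-PRMT5 mouse 1.

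The Ku subunits, which ring the broken end, did not move as a pair. Xrcc6, encoding Ku70, was at 79.4, 92, 109 and 193 CPM with Eµ-PRMT5, 89.8, 98.4 and 151 CPM with Eµ-PRMT5/TCL1 and 161 CPM with Eµ-TCL1. Xrcc5, encoding Ku80, was at 34.7, 58.6, 42.2 and 47.4 CPM, then 27.1, 24.6 and 57.6 CPM, then 40.8 CPM, so that mouse 4 of Eµ-PRMT5 was highest for Xrcc6 but below mouse 2 for Xrcc5. Prkdc, the kinase that Ku recruits, ranged from 42.5 to 101 CPM and was at 43.4 CPM in Eµ-PRMT5 mouse 4. In Eµ-PRMT5/TCL1 mouse 3, Xrcc5, Xrcc6, Prkdc and Lig4 were all above the other mice of that genotype. The 5 log2 fold changes had a median of -0.12, and only that of Xrcc4 exceeded its standard error.

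The base excision and mismatch genes included the most abundant members. Parp1, the enzyme that marks nicks with poly(ADP-ribose), was at 275, 221, 287 and 362 CPM with Eµ-PRMT5, 189.5, 201 and 384 CPM with Eµ-PRMT5/TCL1 and 288 CPM with Eµ-TCL1, with a log2 fold change of -0.15 ± 0.37 (SE), which was 0.03 without Eµ-PRMT5/TCL1 mouse 1 and -0.55 without mouse 3. Msh6, which binds mispaired bases, ranged from 73.4 to 221 CPM, with both ends of the range in Eµ-PRMT5 mice 3 and 1. Ung, the glycosylase that removes uracil from DNA, was at 11.6, 29.3, 13.2 and 32.7 CPM, then 11.1, 11.3 and 26.7 CPM, then 20.8 CPM, with low and high values in both replicated genotypes.

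Xrcc1, the scaffold of single-strand break repair, had the widest range of the members in absolute CPM. As a ratio of highest to lowest mouse its range, 10.6-fold, was below those of Lig4 (13.4-fold) and Brca1 (13.2-fold). Xrcc1 was at 61.3, 63.3, 300.2 and 81.9 CPM with Eµ-PRMT5, 184, 136 and 239 CPM with Eµ-PRMT5/TCL1 and 649.9 CPM with Eµ-TCL1. The 3 Eµ-PRMT5/TCL1 mice exceeded 3 of the 4 Eµ-PRMT5 mice, and Eµ-PRMT5 mouse 3 lay above them all. The means were 127 ± 116 (SD, n = 4) and 186 ± 51.6 CPM (SD, n = 3), and the log2 fold change was 0.56 ± 0.54 (SE; edgeR unadjusted p = 0.326, adjusted p = 1). Without Eµ-PRMT5 mouse 3 the log2 fold change was 1.43 ± 0.34, with an edgeR unadjusted p of 0.00202 and an adjusted p of 0.769. That mouse also had the highest T and NK cell marker sums of the 4 Eµ-PRMT5 mice, and their part in its Xrcc1 level was not tested.

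Of the Fanconi genes, Fancd2 and Fanci, the clamp that is ubiquitinated at crosslinks, were highest in Eµ-PRMT5 mouse 4, as Blm was. Fancd2 was at 10.8, 16.9, 42.6 and 93.5 CPM with Eµ-PRMT5, 43.9, 32.7 and 45 CPM with Eµ-PRMT5/TCL1 and 46 CPM with Eµ-TCL1. Fanci was at 18.5, 12.5, 12.8 and 58.6 CPM, then 30.7, 9.87 and 35.5 CPM, then 20.3 CPM. The group means of Fancd2 were 41 ± 37.7 (SD, n = 4) and 40.6 ± 6.8 CPM (SD, n = 3), so that nearly equal means came from mice with a wide and a narrow spread. The log2 fold changes were -0.02 ± 0.61 (SE) and -0.02 ± 0.62, with the other sign under upper-quartile factors and library size alone, and they were 0.79 and 0.80 without Eµ-PRMT5 mouse 4. Fanca, of the core complex that ubiquitinates the clamp, had 40.4, 20.1, 69.5 and 52.8 CPM with Eµ-PRMT5 and 52.1, 71.2 and 60.7 CPM with Eµ-PRMT5/TCL1, with a log2 fold change of 0.43 ± 0.41 that was 0.18 without Eµ-PRMT5 mouse 2 and 0.70 without mouse 3.

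**Figure D3:**
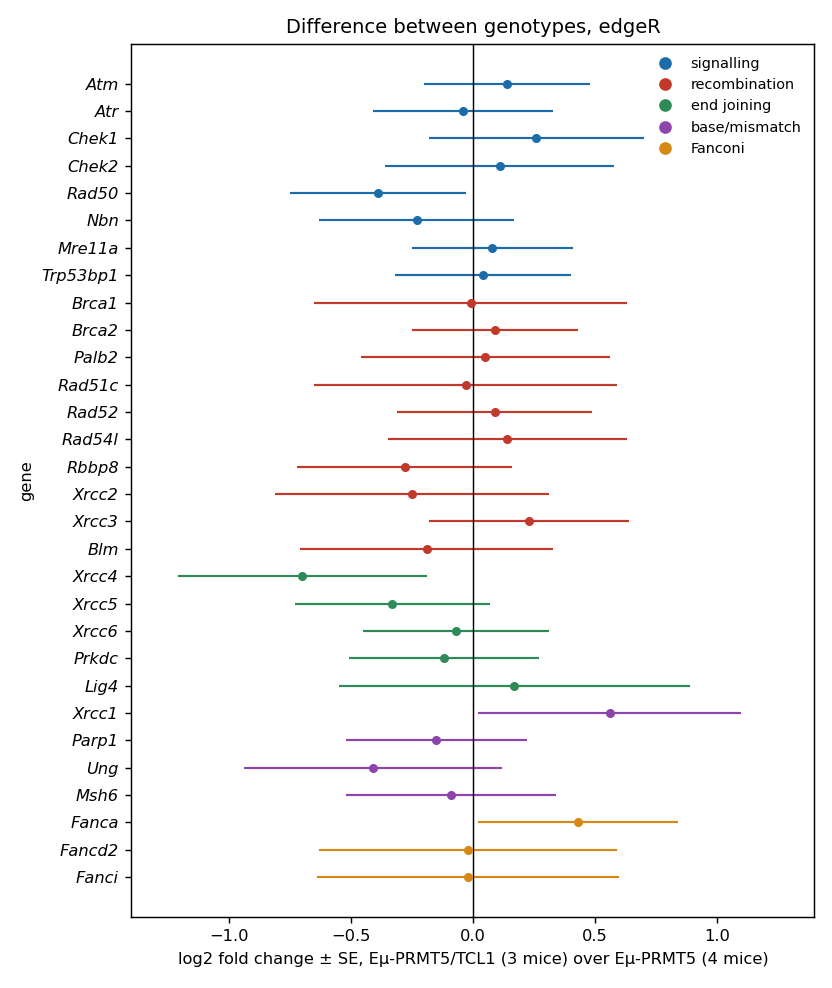
Log2 fold change (horizontal axis) of each of the 30 members, Eµ-PRMT5/TCL1 (3 mice) over Eµ-PRMT5 (4 mice), with bars of 1 SE from edgeR and colours by role. The bars of 26 members cross 0, and Rad50, Xrcc4, Xrcc1 and Fanca, the other 4, lie between -0.70 and 0.56.

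The members were then set against the mean log2 CPM of the 17 mitosis genes across the 8 mice, a relation examined after the values had been seen. Exact permutation tests over all pairings were run for 13156 genes, with Benjamini-Hochberg adjustment over all of them. The r of Rad54l and Blm were the highest of the members, and neither passed after adjustment. For Rad54l, Pearson's r was 0.98 (exact permutation p = 0.000223, adjusted p = 0.0683) and Spearman's rho 0.93 (exact p = 0.00223, adjusted p = 0.239). For Blm, r was 0.93 (exact p = 0.000223, adjusted p = 0.0683) and rho 0.93 (exact p = 0.00223, adjusted p = 0.239). Leaving out Eµ-PRMT5 mice 4 and 2, the 2 farthest from the median of the mitosis genes, r remained 0.94 for Rad54l and 0.86 for Blm.

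With an adjusted p under 0.05, 0 of 30 members and 0.0456% of the genes were positively related. At an unadjusted exact p under 0.05, 8 of 30 members were positively related, against 6% of all genes, and 0 were negatively related, against 4.74%. These counts are by Pearson's r; by Spearman's rho 5 of 30 members were positively related at an unadjusted exact p under 0.05, against 5.42% of all genes, and Chek2, Fanci and Chek1 were not (exact p = 0.0694, 0.0576 and 0.132). The other 6 were Fancd2 (r = 0.87, rho = 0.76), Xrcc2 (r = 0.84, rho = 0.81), Chek2 (r = 0.81, rho = 0.69), Fanci (r = 0.81, rho = 0.71), Xrcc3 (r = 0.78, rho = 0.81) and Chek1 (r = 0.70, rho = 0.60). Their exact permutation p for r ran from 0.00836 for Xrcc2 to 0.0498 for Chek1, and their adjusted p from 0.297 to 0.465. Without the 2 farthest mice r was 0.52 for Xrcc2 and 0.45 for Chek1, so these relations rested partly on those mice, while for Xrcc3, Fancd2, Chek2 and Fanci it was 0.75, 0.76, 0.71 and 0.62. Without Eµ-PRMT5 mouse 4 alone, 5 members were positively related at an unadjusted exact p under 0.05, 4 of them among the 8.

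Among the other members, Xrcc6 (r = 0.68, exact permutation p = 0.061), Fanca (r = 0.61, exact p = 0.12), Rad52 (r = 0.59, exact p = 0.122) and Brca1 (r = 0.58, exact p = 0.143) came next. The lowest r were those of Xrcc4 (r = -0.50, exact permutation p = 0.199, adjusted p = 0.679; rho = -0.60, exact p = 0.132, adjusted p = 0.659), Trp53bp1 (r = -0.45, exact p = 0.267; rho = -0.50) and Prkdc (r = -0.29, exact p = 0.491; rho = -0.45). Without the 2 farthest mice they were -0.70, 0.01 and 0.09. The largest moves on leaving out those mice were in Rad50, from r = -0.08 to -0.83, and Nbn, from r = 0.07 to 0.81, so their r over 8 mice depended on the mice used. Atm had r = -0.12 (exact permutation p = 0.77, adjusted p = 0.964) and rho = -0.17 (exact p = 0.703, adjusted p = 0.951), Atr r = -0.03 (exact p = 0.94, adjusted p = 0.991) and Xrcc1 r = 0.18 (exact p = 0.672, adjusted p = 0.941). By role the median r was 0.02 for the 8 signalling genes, 0.58 for the 10 recombination genes, -0.07 for the 5 end joining genes, 0.26 for the 4 base excision and mismatch genes and 0.81 for the 3 Fanconi genes, beside -0.02 over all genes. The levels of B cell, erythroid, neutrophil, macrophage and plasma cell markers also differed between the mice at the ends of the axis, as given above. Their part was not separated from the relation.

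**Figure D4:**
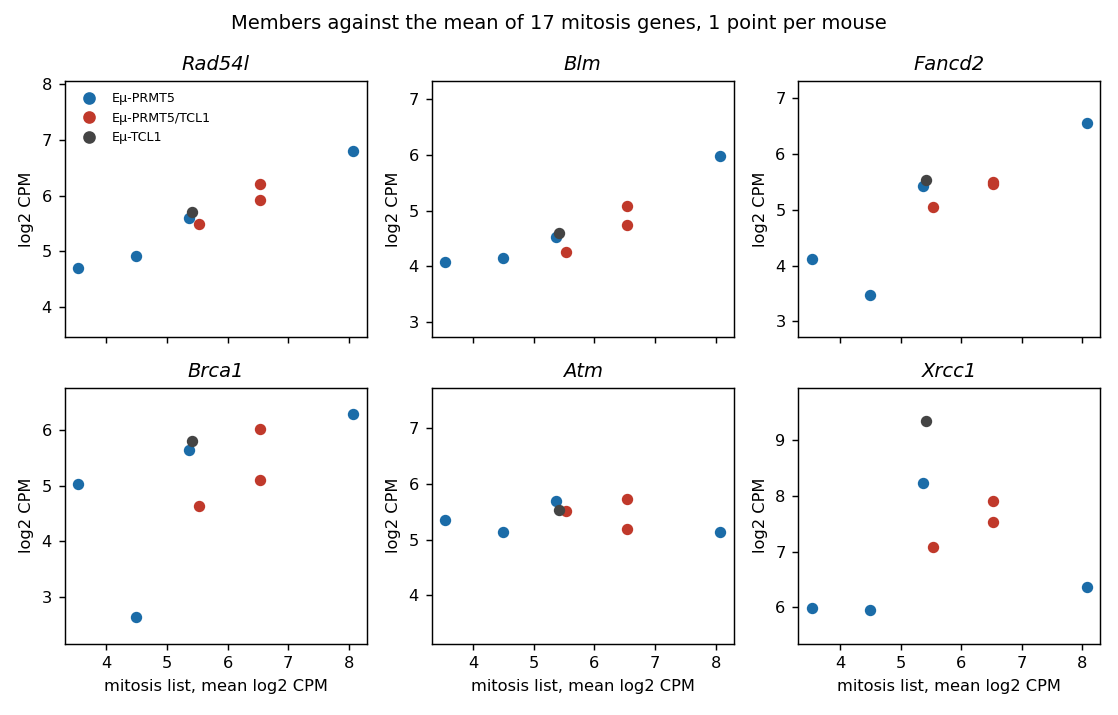
Log2 CPM of 6 members (vertical axes, each spanning the same number of log2 units) against the mean log2 CPM of 17 mitosis genes (horizontal axis), 1 point per mouse, coloured by genotype. Rad54l, Blm and Fancd2 climb with the mitosis genes (r = 0.98, 0.93 and 0.87), while Brca1, Atm and Xrcc1 follow them less closely (r = 0.58, -0.12 and 0.18).

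The single Eµ-TCL1 mouse gives a look at B cells with TCL1 alone, but with no replicate its own variation is unknown. Its 30 members had a mean of 5.60 log2 CPM, within the 4.81 to 5.71 of the Eµ-PRMT5 mice and above the 5.03 to 5.53 of the Eµ-PRMT5/TCL1 mice, while the mean over all genes tested was 4.85 there and 4.55 to 4.75 in the other 7 mice. In 5 of 30 members, Chek1, Brca2, Rad51c, Lig4 and Xrcc1, the Eµ-TCL1 mouse was above all 7 others, as it was in 21.3% of all genes, and in 0 members was it below them, against 14.2%. Requiring also a 2-fold distance from the mean log2 CPM of each of the other groups left 3 members above (12.7% of all genes), Rad51c, Lig4 and Xrcc1, and 0 below (4.05%). Lig4 dropped out, leaving 2, when empty cells were counted as 0, without Eµ-PRMT5 mouse 1 and without Eµ-PRMT5/TCL1 mouse 2. The members' counts above all others were thus close to those of the genes at large.

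Xrcc1 differed most, with 649.9 CPM being 5.13 times the mean of the Eµ-PRMT5 mice and 3.49 times that of the Eµ-PRMT5/TCL1 mice. Without Eµ-PRMT5 mouse 3 it was 9.44 times the mean of the remaining Eµ-PRMT5 mice. Its gene, at chr7:24546289-24573440 on GRCm38, shares no exon base with another annotated gene. Rad51c stood at 2.9 and 2.93 times those means, on 74 counts, and Lig4 at 2.33 and 2.06 times, on 78 counts, the latter against a mean of mice at 1.57 to 18.9 CPM that depends on which mice are in it. In the model over all 3 groups, which assumes that the Eµ-TCL1 mouse varies like the replicated ones, the log2 fold change of Xrcc1 was -2.36 for Eµ-PRMT5 over Eµ-TCL1 (edgeR unadjusted p = 0.00574, adjusted p = 0.709) and -1.80 for Eµ-PRMT5/TCL1 over Eµ-TCL1 (edgeR unadjusted p = 0.0355, adjusted p = 0.778). These comparisons share the Eµ-TCL1 mouse and are not independent. With an adjusted p under 0.05, 0 of 30 members were called in either, as were 0% of genes. The median log2 fold changes of the members were -0.05 and -0.16, beside 0.04 and -0.07 over all genes, and they turned to 0.21 and 0.14 when empty cells were counted as 0. The former also turned to 0.05 with DESeq2, 0.04 with only the compared groups, 0.11 without Eµ-PRMT5 mouse 1 and 0.02 without mouse 2, so its sign was not stable. Other scalings moved both medians down, the former to -0.20 with upper-quartile factors and -0.31 with library size alone. The latter was -0.25 and -0.39 with these.

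**Figure D5:**
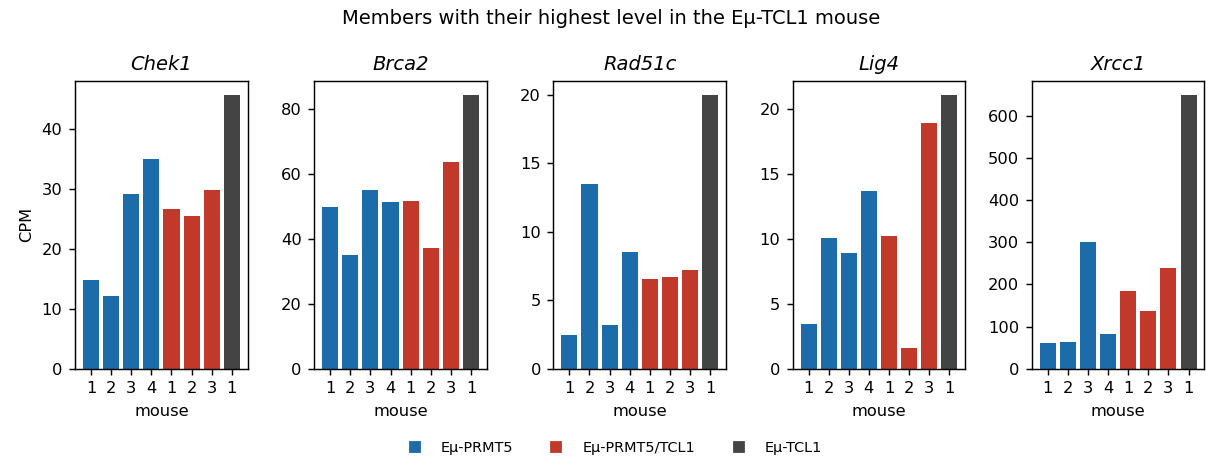
CPM (vertical axes, from 0) of the 5 members that were highest in the Eµ-TCL1 mouse, 1 bar per mouse, coloured by genotype and labelled by mouse number. Xrcc1 reaches 649.9 CPM in the Eµ-TCL1 mouse and at most 300.2 CPM elsewhere, whereas Lig4 in Eµ-PRMT5/TCL1 mouse 3 is close to the Eµ-TCL1 value.

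The rest of the repair machinery was looked at through lists of 97 further genes, of which 91 were tested. None passed an adjusted p of 0.05 with edgeR when Eµ-PRMT5/TCL1 was compared with Eµ-PRMT5, 0 were higher and 1 was lower at an unadjusted p under 0.05, and their median log2 fold change was -0.17. Like the members, they had their lowest mean level in Eµ-PRMT5 mouse 1 (5.02 log2 CPM) and their highest in mouse 4 (5.61), and 39 of the 91 were highest in mouse 4, against 20.1% of all genes. The other recombination genes did so most often, 13 of 17. Rpa1 and Rpa2, subunits of the protein that coats single-stranded DNA, were at 635 and 334 CPM there and at most 497 and 155 CPM elsewhere, and Recql, a helicase, was at 97.1 CPM against at most 73.1 CPM.

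Among the other signalling genes, H2afx, whose phosphorylated product marks breaks, was at 68.2, 72, 81.8 and 275 CPM with Eµ-PRMT5, 154, 95.1 and 196 CPM with Eµ-PRMT5/TCL1 and 107 CPM with Eµ-TCL1. Topbp1, the activator of ATR, was likewise highest in Eµ-PRMT5 mouse 4 at 181 CPM, whereas Uimc1, which brings BRCA1 to ubiquitin at breaks, ranged from 64.6 to 118 CPM and was at 71.7 CPM there. In base excision and mismatch repair, Lig1, the ligase of replication and long-patch repair, was at 43.2, 45, 57.2 and 412 CPM, then 158, 88.4 and 175 CPM, then 35.1 CPM, while Parp2 lay between 81.6 and 227 CPM and was highest in Eµ-PRMT5 mouse 1. Of the other end joining genes, Polm, a polymerase that fills gaps at joined ends, had a log2 fold change of 0.79 ± 0.42 (SE; edgeR unadjusted p = 0.0813), and Rif1, which acts with 53BP1, one of -0.50 ± 0.36. Fancg, Slx4 and Usp1 of the Fanconi list had log2 fold changes of -0.24, -0.25 and -0.07.

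Excision and translesion genes had a median log2 fold change of -0.30, the lowest of the repair lists, with 4 genes above and 15 below 0. Ddb2, which recognizes ultraviolet lesions with DDB1 and is named as the list's only gene with an unadjusted p under 0.05, was at 23.5, 26.4, 30.1 and 18.9 CPM with Eµ-PRMT5, 4.59, 10.2 and 12.8 CPM with Eµ-PRMT5/TCL1 and 12.2 CPM with Eµ-TCL1. Every Eµ-PRMT5 mouse was above every other mouse, yet the log2 fold change of -1.43 ± 0.48 (SE; edgeR unadjusted p = 0.012) did not pass after adjustment. Ddb1, its partner, was highest in Eµ-PRMT5 mouse 4 at 639 CPM and lowest in mouse 3 at 178 CPM, with 242, 329 and 453 CPM in the combined genotype. Of the genes used in antibody diversification, Apobec3, a cytidine deaminase acting on retroviral DNA, ranged from 430 to 932 CPM, and Pcna, the replication clamp, reached 463 CPM in Eµ-PRMT5 mouse 4, with 94.6 to 260.0 CPM elsewhere. In each of these lists the 4 and the 3 mice overlapped in mean level.

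Levels of different members can be compared only per length of exon. By mean CPM per kilobase over the 8 mice, the highest members were Parp1 at 52.1, Xrcc1 at 36.8, Msh6 at 32.7, Xrcc6 at 27.2 and Rad50 at 20.4. Ung, the other member of the base excision and mismatch group, was far lower, at 3.59. Xrcc1 averaged 21.7 with Eµ-PRMT5, 31.9 with Eµ-PRMT5/TCL1 and 111 with Eµ-TCL1, so its place above Msh6 came from the single Eµ-TCL1 mouse. The scarcest on this scale were Atr at 1.56, Bard1 at 1.65 (over the 7 mice with a value), Rad51c at 1.94, Lig4 at 2.11 and Xrcc2 at 2.46, mostly genes of recombination and end joining. Length here is that of all annotated exons of a gene merged, which can exceed the transcript in use. It was 23629 bases for Atr and 12521 for Rbbp8, so their places depend on it. By CPM alone Atr, at 24.8 to 48.8, was above Chek2, at 9.74 to 22.5, and Rad51c, at 2.44 to 20. Exons of 14 members overlap those of a gene on the opposite strand, over 2130 bases for Trp53bp1, 1188 for Atr and 1184 for Rad54l, and whether reads of the opposite strand were kept apart is not stated in the sources used here. Blm, Brca1, Chek1, Rad51c, Lig4 and Xrcc1 have no such overlap.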

How the data were processed

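RNA-seq was done on B cells isolated from mouse spleens. The authors deposited a matrix of gene counts per symbol, made with Subread featureCounts on GRCm38. The sources used here differ on the library kit (SMARTer v4 with Nextera XT, or TruSeq stranded), and what an empty cell of the matrix means is not given. Of 24902 symbols, 14072 had a value in all 8 libraries, and the rest were left out of the tests; 26 symbols had been turned into dates and 4 rows repeat a symbol. Counts were normalized by TMM and tested with edgeR 4.0.16 in R 4.3.3 (quasi-likelihood, filterByExpr, 1 model over 3 genotypes, Benjamini-Hochberg over 13173 genes), and again with DESeq2 1.42.0. Log2 CPM used a prior count of 2. A call needed an adjusted p under 0.05. Libraries held 3356297 to 10252426 counts, and the common biological coefficient of variation was 0.483. Every member is named, and beyond them the 3 most abundant genes of each list, with exceptions named where they occur. The members and lists were chosen with earlier results of these data known. Relations were tested by exact permutation over 40320 pairings with scipy 1.17.1, and the scripts were tested on simulated data. Other tests, scalings, filters, treatments of empty cells and left-out mice were tried. Gene positions and exons came from GENCODE. Some genes of the lists are not reported here by name.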

Additional observations from a re-analysis of the deposited data

Results flagged for a closer look

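In 3 of the 30 members tested, 1 of the 4 Eµ-PRMT5 mice stood far from the other 3. Chance alone picks out about 1 in 20, and 11% of all genes tested met the same rule. Blm was at 62.7 CPM in Eµ-PRMT5 mouse 4 and at 16.5 to 22.8 CPM in the other 3 mice of that genotype. Fanci was at 58.6 CPM in the same mouse and at 12.5 to 18.5 CPM in the other 3. Xrcc1 was at 300.2 CPM in Eµ-PRMT5 mouse 3 and at 61.3 to 81.9 CPM in the other 3. The causes were not tested.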

How the results depend on the processing

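Only 1 mouse carried TCL1 alone, the genotypes had 3 and 4 mice, and the lowest member count was 11. Without adjustment, DESeq2 found 394 genes at a p under 0.05 for Eµ-PRMT5/TCL1 against Eµ-PRMT5, and after it called 4, which were not members; every other alternative called 0. Members with an edgeR unadjusted p under 0.05 numbered 0 in most alternatives, 1 with the replicate block and 0 to 1 when each mouse was left out in turn. With the block it was Rad54l, at 0.80 ± 0.35 (edgeR unadjusted p = 0.044, adjusted p = 0.74). Mice with the same number are different animals, and after removing genotype their correlations were 0.0213, 0.106 and 0.162; the block gave a median member log2 fold change of 0.17 and 826 genes at an unadjusted p under 0.05, and the same 6 mice without it 742. The all-gene median moved by over 0.1 in Eµ-PRMT5 against Eµ-TCL1 (-0.16 with upper-quartile factors, -0.25 with library size) and in Eµ-PRMT5/TCL1 against Eµ-TCL1 (-0.23 with library size, 0.11 with at least 10 counts, 0.13 with only the compared groups and without Eµ-PRMT5 mouse 1). Over all alternatives, 78 of 536 member fold changes took the other sign, in 21 genes, 0 of them reversing a call, and 17, in 12 genes, moved by over 1 SE, 9 of these with a change of sign. When mice were left out, the median member log2 fold change ranged from -0.12 to 0.13 for Eµ-PRMT5/TCL1 against Eµ-PRMT5, from -0.28 to 0.11 for Eµ-PRMT5 against Eµ-TCL1 and from -0.26 to -0.03 for Eµ-PRMT5/TCL1 against Eµ-TCL1, and the cause was not tested. In alternatives chosen after the data were seen, members positively related to the mitosis genes numbered 7 with upper-quartile factors, 6 with library size and 5 to 9 when single mice were left out, and r was at least 0.96 for Rad54l and 0.88 for Blm in each of these.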

Other observations

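The 4 genes called by DESeq2 alone between Eµ-PRMT5/TCL1 and Eµ-PRMT5 were Slc9a3r2 (log2 fold change 2.73), Rgl1 (2.23), Ehd2 (2.20) and Tcf7 (-2.37). Slc9a3r2, a scaffold for membrane transporters, was at 5.28, 2.37, 4.1 and 6.46 CPM with Eµ-PRMT5, 31.2, 28.3 and 32.9 CPM with Eµ-PRMT5/TCL1 and 44.3 CPM with Eµ-TCL1. Tcf7, a transcription factor of T cells, was at 33.5, 36.7, 40.8 and 10.5 CPM, then 5.25, 4 and 8.3 CPM, then 28.1 CPM. Of the T cell markers tested in the same comparison, Cd3d, Cd3e and Cd8b1 had log2 fold changes of -2.53, -1.54 and -2.04, Cd3g of -0.20 and Lck of 0.49, and the part of T cell content in Tcf7 was not tested. The adjusted p of edgeR was 0.73 for Slc9a3r2 and 1 for the others.

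After the level of Xrcc1 in the Eµ-TCL1 mouse had been seen, the genes within 50 kb of it were looked at. Of 8 annotated genes 4 were tested, and 3 of these, Irgq, Pinlyp and Ethe1, were highest in the Eµ-TCL1 mouse, as 21.3% of all genes tested were. Pinlyp, 171 bases away on the opposite strand, was at 4.67, 0.158, 6.61 and 1.96 CPM with Eµ-PRMT5, 10.8, 5.86 and 17.5 CPM with Eµ-PRMT5/TCL1 and 32.7 CPM with Eµ-TCL1. Irgq, 7689 bases away, was at 18.5, 13.9, 25.5 and 22.1 CPM, then 18.4, 30.3 and 41.8 CPM, then 55.4 CPM. Ethe1 was at 159.8 CPM with Eµ-TCL1 and at 45.2 to 107 CPM elsewhere, and Zfp428 lay within the range of the other mice. Whether these levels share a cause was not tested.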
